A study of Mus musculus with 16 samples.

Results

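Fc receptors bind the constant part of antibodies and let a phagocyte respond to antibody-coated material. Activating receptors signal through an ITAM, a tyrosine motif carried by the shared gamma chain, which recruits Src family kinases and Syk, whereas the inhibitory receptor carries its own ITIM and recruits phosphatases. In the brain these receptors are known mainly from microglia and from the macrophages of its borders. The 6 genes described here are Fcgr1, the high-affinity activating IgG receptor; Fcgr3 and Fcgr4, the activating receptors of lower affinity; Fcer1g, the gamma chain they depend on; Fcgr2b, the inhibitory IgG receptor; and Fcrls, an Fc receptor-like protein without a settled ligand that is widely used as a microglial marker. They were taken by symbol from 49671 gene rows, and each symbol matched 1 row.

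Hippocampus of female mice, 8 months old, was profiled as bulk RNA in 16 libraries, 4 for each of 4 genotypes. WT mice carried neither change, p16KO mice lacked p16, PS19 mice carried the tau transgene with wildtype p16, and PS19_p16KO mice carried the transgene and lacked p16. PS19 is known as a transgenic line in which the mouse prion protein promoter drives human tau with a disease mutation, and p16 is a product of Cdkn2a that restrains the cell cycle. The labels name no treatment and do not describe the p16 allele. Whether each library is a different animal is not said, and p-values therefore reflect only the spread between these samples, which may be technical.

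Libraries held 18485552 to 22311322 gene counts, and levels are given as CPM, the count scaled to a common number of gene counts per library. Cdkn2a, the gene that encodes p16, was too low to be tested: WT had a summed count of 8, p16KO of 3, PS19 of 18 and PS19_p16KO of 2, and PS19 library 3 held 1 of the PS19 counts. These counts are of the whole gene and do not single out p16. Markers of choroid plexus, a neighbouring tissue, summed to 883 CPM in WT library 1, 3477 CPM in p16KO library 4 and 5908 CPM in PS19_p16KO library 3, and to between 37.8 and 205 CPM in the other 13. All 14 microglia markers were measured in every group, from 334 to 922 CPM summed. Markers of mast cells and basophils summed to at most 0.411 CPM, with 3 of 6 at 0 in all libraries, markers of NK and T cells to at most 1.67 CPM and markers of neutrophils to at most 2.21 CPM. Markers of border-associated macrophages summed to between 3.77 and 12.7 CPM. Of these 4 lists, that of neutrophils had 1 marker and that of border-associated macrophages 5 high enough to be tested, none of which was called in any comparison, and the other lists had 0. Markers of monocytes summed to 35.7 to 80.5 CPM, with Fn1 alone at a mean of 46.3 in WT. Those of dendritic cells summed to 12.5 to 17.6 CPM. B and plasma cell markers summed to 57.9 to 77.3 CPM, with Xbp1 alone at 63.3 in WT. These lists had 2, 3 and 2 tested markers, and none was called. Over all tested genes, 1.56% were called higher in PS19 against WT and 0.776% lower in PS19_p16KO against PS19. A lack of calls among so few markers is near that background. In bulk RNA, fewer cells of a type and less RNA per cell cannot be told apart.

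Scaled to exon length, Fcrls stood above the other 5 genes in every genotype. Its level in WT was 8.31 CPM per kb ± 0.982 (SD, n = 4), and it made up 51.8% of the length-scaled sum of the 6 genes in WT, 48.9% in p16KO, 50.2% in PS19 and 45.6% in PS19_p16KO. Fcer1g (3.07 ± 0.833 CPM per kb in WT) and Fcgr3 (2.93 ± 0.362) followed, and these neighbours in the order did not differ beyond their spread. Fcgr1 stood at 1.16 ± 0.284 CPM per kb in WT, Fcgr2b at 0.375 ± 0.0605 and Fcgr4 at 0.223 ± 0.212, the last of them again within the spread of its neighbour. Exon length here covers all annotated exons of a gene, 5790 bases for Fcgr2b and 874 to 2589 for the other 5 genes. The place and share of Fcgr2b depend on that length. Before scaling it stood at 2.17 CPM in WT, near Fcer1g at 2.68 and above Fcgr4 at 0.280. The order was the same in PS19, and in p16KO and PS19_p16KO Fcgr3 and Fcer1g changed places within their spread.

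On chromosome 1, 4 of the genes lie close together, and the other 2 lie apart from each other on chromosome 3. In GRCm38, Fcgr2b (ENSMUSG00000026656, minus strand) spans chr1:170958617-170976547, Fcgr4 (ENSMUSG00000059089, plus strand) spans chr1:171018920-171029761, Fcgr3 (ENSMUSG00000059498, minus strand) spans chr1:171051174-171064935 and Fcer1g (ENSMUSG00000058715, minus strand) spans chr1:171229572-171234365. Fcrls (ENSMUSG00000015852, minus strand) spans chr3:87250758-87263738 and Fcgr1 (ENSMUSG00000015947, minus strand) spans chr3:96282909-96293969. All are annotated as protein-coding. Fcgr3 and Fcgr2b share 166 of the 50-base words of their annotated transcripts, which is 9.58% of the words of Fcgr3, so the split of reads between them is uncertain over that stretch. Fcgr2b shares 395 of its words (6.95%) in all, with 146 genes. Fcgr1, Fcgr4, Fcer1g and Fcrls share no such word with another gene.

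The 150 bases before the RefSeq start of each gene are shown because the 6 genes differ in whether they hold the purine-rich letters GAGGAA (a core of the PU-box, the element bound by the myeloid factor PU.1), searched on both strands and written in capitals where present. The letters, or TTCCTC on the other strand, occur in 4 of the 6 windows and in 14.5% of 32851 RefSeq windows of the same length. The windows, in build GRCm38.p6 and read 5′ to 3′ on the strand of the gene, are chr3:96293970-96294119 for Fcgr1, chr1:171059404-171059553 for Fcgr3, chr1:171018776-171018925 for Fcgr4, chr1:171234350-171234499 for Fcer1g, chr1:170976072-170976221 for Fcgr2b and chr3:87263525-87263674 for Fcrls. RefSeq lists 2 starts for Fcgr3, and the first listed was used.
Fcgr1: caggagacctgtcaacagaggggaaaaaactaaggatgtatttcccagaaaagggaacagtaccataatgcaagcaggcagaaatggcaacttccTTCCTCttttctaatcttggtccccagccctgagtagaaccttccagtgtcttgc
Fcgr3: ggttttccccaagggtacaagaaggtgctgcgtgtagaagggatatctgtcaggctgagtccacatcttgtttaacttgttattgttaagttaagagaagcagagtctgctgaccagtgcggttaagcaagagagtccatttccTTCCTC
Fcgr4: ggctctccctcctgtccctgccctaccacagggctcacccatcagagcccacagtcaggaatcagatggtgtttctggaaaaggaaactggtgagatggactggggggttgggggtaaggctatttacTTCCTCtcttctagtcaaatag
Fcer1g: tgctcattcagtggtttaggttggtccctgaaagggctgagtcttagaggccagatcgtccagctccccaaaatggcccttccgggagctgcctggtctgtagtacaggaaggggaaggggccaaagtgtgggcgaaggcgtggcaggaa
Fcgr2b: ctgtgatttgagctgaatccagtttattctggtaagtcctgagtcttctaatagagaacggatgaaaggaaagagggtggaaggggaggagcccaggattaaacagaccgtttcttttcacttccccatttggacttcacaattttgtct
Fcrls: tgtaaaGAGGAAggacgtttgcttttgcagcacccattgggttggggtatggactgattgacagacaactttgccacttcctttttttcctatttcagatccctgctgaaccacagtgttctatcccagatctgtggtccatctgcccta
The match began 55 bases before the start in Fcgr1, 6 before it in Fcgr3, 22 before it in Fcgr4 and 144 before it in Fcrls. No match in Fcer1g and Fcgr2b says only that these letters are not in these windows. Spi1, which encodes PU.1, was itself higher in PS19 than in WT (log2 fold change 0.94 ± 0.19 SE, adjusted p = 0.0110, edgeR), and its difference between PS19_p16KO and PS19 did not pass the test (-0.46 ± 0.19, adjusted p = 0.426).

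All 6 genes had their highest mean in PS19 and 5 of them rose there against WT, by 1.95 to 2.62 times. The activating receptors Fcgr1 and Fcgr3, the gamma chain Fcer1g, the inhibitory receptor Fcgr2b and Fcrls all passed, in the same direction. Of all 16372 genes tested, 1.56% were called higher in PS19. The median log2 fold change of the 6 genes was 1.30, and that of all tested genes was -0.01. Fcgr4 reached the test through 4 libraries at or above 0.524 CPM, 2 of them PS19, and the other 5 genes were above that level in all 16 libraries.

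Among the activating receptors, Fcgr3 was at 5.13, 4.21, 5.71 and 5.25 CPM in WT libraries 1 to 4 and at 14.9, 15.8, 7.48 and 12.97 CPM in PS19. Every PS19 library lay above every WT library, and PS19 library 3 lay closest to them. The log2 fold change of Fcgr3 was 1.33 ± 0.19 (SE, adjusted p = 0.000763). Fcgr1 was at 3.72, 3.36, 2.91 and 2.02 CPM in WT and at 7.52, 6.70, 3.50 and 5.84 CPM in PS19. Here the groups overlapped, because PS19 library 3 lay below WT library 1. The log2 fold change of Fcgr1 was 0.97 ± 0.23 (SE, adjusted p = 0.0386). Fcgr4 was near the detection limit, at 0, 0.538, 0.476 and 0.106 CPM in WT and 1.29, 0.631, 0.484 and 0.429 CPM in PS19, and the 0 counts of WT library 1 allow up to 0.157 CPM by counting error alone. Its groups overlapped, and its log2 fold change of 1.28 ± 0.57 did not pass (adjusted p = 0.466).

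The gamma chain gene Fcer1g was at 2.57, 3.18, 3.28 and 1.70 CPM in WT and at 8.76, 9.71, 3.55 and 5.79 CPM in PS19. The groups did not overlap, with PS19 library 3 just above the highest WT library. Its log2 fold change was 1.36 ± 0.26 (SE, adjusted p = 0.00705). The inhibitory receptor gene Fcgr2b was at 1.83, 2.47, 2.49 and 1.91 CPM in WT and at 6.45, 7.96, 3.44 and 5.09 CPM in PS19. Again no library of one genotype lay within the range of the other. Its log2 fold change was 1.39 ± 0.24 (SE, adjusted p = 0.00338), the highest fitted value among the 6 genes and within 1 SE of those of Fcgr3 and Fcer1g. Fcrls was at 16.6, 19.5, 22.2 and 19.4 CPM in WT and at 59.0, 53.3, 27.8 and 38.7 CPM in PS19, without overlap, and its log2 fold change was 1.20 ± 0.20 (SE, adjusted p = 0.00562). In all, 4 of the 6 genes separated the 2 genotypes upward, against 3.52% of all tested genes.

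**Figure D1:**
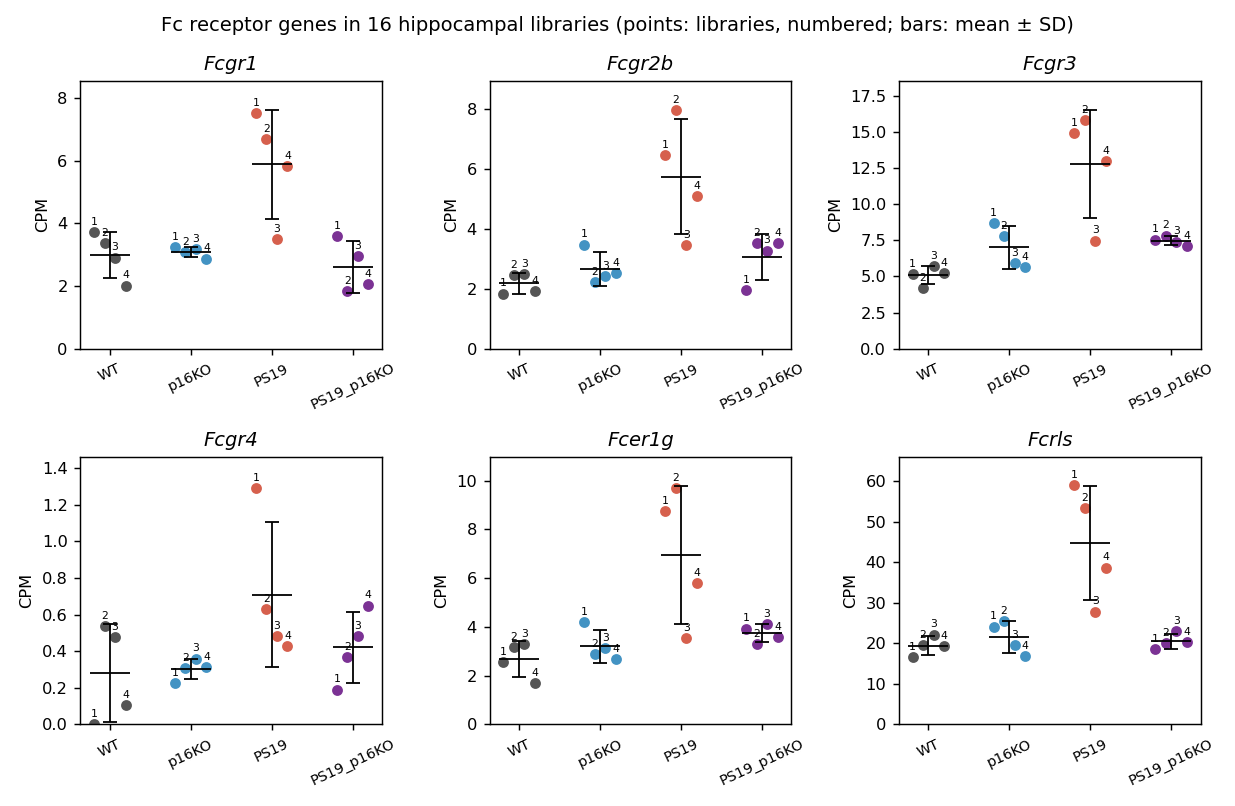
Level of each gene in CPM (y axis, linear, from 0) by genotype (x axis), where each point is a library marked with its replicate number and bars give the mean ± SD of 4 libraries. The mean and the SD are largest in PS19 in every panel, with PS19 library 3 lowest of its group in every panel except Fcgr4.

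Within PS19, the same libraries tended to be high or low for all of these genes. PS19 library 3 was the lowest of its group for 5 of the 6 genes, and libraries 1 and 2 held the highest value for 3 genes each. The summed microglia markers ranged from 464 to 922 CPM in PS19 and from 334 to 380 CPM in WT, and 10 of the 14 markers rose (median log2 fold change 0.93). The homeostatic markers P2ry12 (-0.01 ± 0.08) and Tmem119 (0.02 ± 0.08) were among those that did not pass. Their part in the difference of the Fc receptor genes was not tested beyond the ratios given below. The call for Fcgr1 ended when WT library 2, 3 or 4, any 1 p16KO library, or PS19 library 1, 2 or 4 was left out (adjusted p = 0.0520 to 0.198), and with limma-voom (adjusted p = 0.0580). A fit to the 2 genotypes alone kept Fcgr2b and Fcgr3 and lost Fcgr1 (adjusted p = 0.0975), Fcer1g (0.0844) and Fcrls (0.102).

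With p16 lost on the transgenic background, all 6 fitted differences were downward and 2 genes fell, Fcgr1 and Fcrls. These were the high-affinity activating receptor and the Fc receptor-like gene, at 0.447 and 0.461 times the PS19 level. Of all tested genes, 0.776% were called lower. The PS19 libraries are the same as in the comparison with WT, so the values of the 2 comparisons are not independent. The median log2 fold change of the 6 genes was -0.89, and that of all tested genes was 0.00. Of the 14 microglia markers 6 fell (median -0.70), with sums of 391 to 442 CPM in PS19_p16KO.

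Fcgr1 was at 3.602, 1.84, 2.95 and 2.06 CPM in PS19_p16KO libraries 1 to 4, with the PS19 values as above. PS19_p16KO library 1 lay above PS19 library 3 and the other 3 lay below all of PS19. The log2 fold change was -1.16 ± 0.24 (SE, adjusted p = 0.0234). Fcrls was at 18.6, 20.1, 23.0 and 20.3 CPM, all below the lowest PS19 library, with a log2 fold change of -1.12 ± 0.20 (SE, adjusted p = 0.0175). It was the only 1 of the 6 genes whose groups did not overlap downward, against 2.63% of all tested genes.

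The other activating receptors, the gamma chain and the inhibitory receptor did not pass in this comparison. Fcgr3 was at 7.54, 7.81, 7.40 and 7.09 CPM in PS19_p16KO, with a narrow range that held PS19 library 3, and its log2 fold change was -0.77 ± 0.18 (adjusted p = 0.0537). Fcer1g was at 3.93, 3.30, 4.13 and 3.57 CPM, overlapping PS19 library 3, with -0.89 ± 0.25 (adjusted p = 0.128). Fcgr2b was at 1.94, 3.51, 3.27 and 3.52 CPM, where library 1 stood below the rest and libraries 2 and 4 above PS19 library 3, with -0.90 ± 0.24 (adjusted p = 0.0883). Fcgr4 was at 0.190, 0.367, 0.482 and 0.649 CPM, within the range of PS19 or below it, with -0.74 ± 0.55 (adjusted p = 0.773).

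Which of the genes passed rested on single libraries. Without PS19 library 3, the lowest of its group, 5 of the 6 genes were called lower, all but Fcgr4; without PS19 library 2, PS19_p16KO library 2 or PS19_p16KO library 4 none was, and without PS19 library 1 or PS19_p16KO library 1 a single gene was (Fcrls and Fcgr1 respectively). When WT library 1, p16KO library 4 and PS19_p16KO library 3, those with the most choroid plexus RNA, were left out, none was called, at adjusted p = 0.0545 for Fcgr1 (log2 fold change -1.21) and 0.0574 for Fcrls (-1.16). The choroid plexus markers had a median log2 difference of 3.57 between these genotypes with every library, and none of them passed; that setting was chosen after seeing the data.

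**Figure D2:**
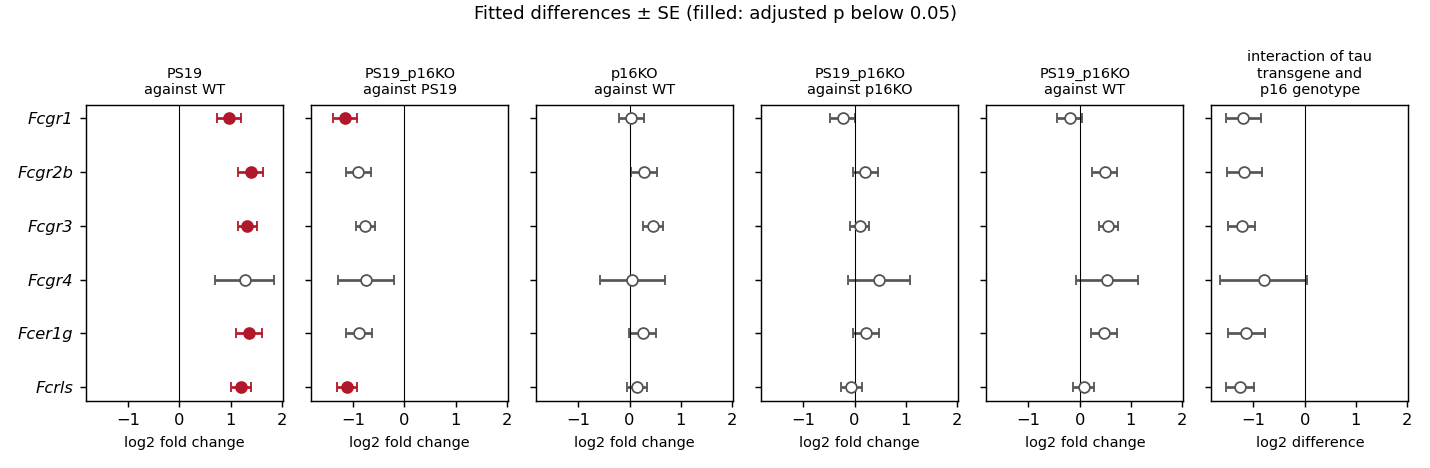
Fitted log2 difference ± SE (x axis) of each gene (y axis) in 5 comparisons of genotypes and in the interaction, with filled points where the adjusted p is below 0.05. PS19 against WT has 5 filled points and PS19_p16KO against PS19 has 2, and the other panels have none.

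Without the transgene, loss of p16 moved none of the 6 genes past the test. Levels in p16KO libraries 1 to 4 were 3.24, 3.08, 3.18 and 2.87 CPM for Fcgr1, 8.69, 7.76, 5.90 and 5.64 CPM for Fcgr3, and 4.19, 2.88, 3.13 and 2.67 CPM for Fcer1g. They were 3.47, 2.21, 2.41 and 2.51 CPM for Fcgr2b, 0.225, 0.308, 0.359 and 0.314 CPM for Fcgr4, and 24.1, 25.4, 19.6 and 16.8 CPM for Fcrls. Every gene overlapped its WT range, where 1.75% of all genes lay above it without overlap and 1.24% below. The genes had fitted log2 differences from 0.04 for Fcgr1 to 0.46 ± 0.19 for Fcgr3 (unadjusted p = 0.0245, adjusted p = 0.999). No gene of 16372 was called by edgeR in this comparison (0%), where the unadjusted p was under 0.05 for 653. With DESeq2 there were 18 calls and with limma-voom there were 9.

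Between PS19_p16KO and p16KO, which differ in the transgene without p16, none of the 6 genes was called, where 0.0183% of all genes were. The fitted differences ran from -0.23 for Fcgr1 to 0.48 for Fcgr4. The unadjusted edgeR p was under 0.05 for 0 of the 6 genes, and for 598 of all 16372 genes tested. Between PS19_p16KO and WT none was called either, where 0.0366% of all genes were. Fcgr3 (log2 fold change 0.56 ± 0.19, adjusted p = 0.568) and Fcer1g (0.48 ± 0.26, adjusted p = 0.662) nevertheless lay above WT in every library, as did 2.05% of all genes, and Fcrls differed by 0.08 ± 0.20. Group means thus stood at 7.46 ± 0.302 CPM for Fcgr3 in PS19_p16KO (SD, n = 4), against 5.08 ± 0.629 in WT, 6.998 ± 1.47 in p16KO and 12.8 ± 3.73 in PS19.

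The interaction asks whether the transgene difference itself differed with p16 genotype. It was negative for all 6 genes, with a median of -1.19 on the log2 scale against 0.01 over all genes, and it passed for none of them, where 0.00611% of all genes passed. Fcgr3 had -1.23 ± 0.26 (adjusted p = 0.111), Fcrls -1.26 ± 0.28 (0.151), Fcgr1 -1.20 ± 0.34 (0.257), Fcgr2b -1.18 ± 0.34 (0.279), Fcer1g -1.14 ± 0.36 (0.383) and Fcgr4 -0.80 ± 0.85 (0.999). The unadjusted edgeR p was under 0.05 for 5 of the 6, and for 890 of all 16372 genes tested. Without PS19 library 3 it passed for 5 genes, with edgeR adjusted p = 0.000892 for Fcgr3, 0.00157 for Fcrls, 0.0297 for Fcgr1, 0.0318 for Fcer1g and 0.0384 for Fcgr2b. That library was the lowest of PS19 for these same 5 genes, so leaving it out widens the difference. Each of the 5 was called in only 1 of the 16 fits that left out a library. DESeq2 called 2 of the 6 with every library.

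To set the genes against microglial marker RNA in the same library, each was divided by the mean of the 14 microglia markers on the log2 scale. These markers did not move alike, and 10 of the 14 rose in PS19 against WT. C1qa had means of 36.1 CPM in WT and 109 in PS19, and P2ry12 of 28.9 and 28.7. The ratios thus depend on which markers are averaged. In PS19 against WT the ratio was higher by 0.28 for Fcrls, 0.40 for Fcgr3, 0.41 for Fcer1g, 0.44 for Fcgr2b and 0.46 for Fcgr4, and by 0.06 for Fcgr1, all with overlapping libraries. In PS19_p16KO against PS19 the ratio of Fcrls differed by -0.40 ± 0.11 (SE), at 0.10, 0.44, 0.43 and 0.48 in PS19_p16KO and at 0.74, 0.92, 0.62 and 0.77 in PS19. These did not overlap. The two-sided exact permutation test gave p = 0.0286, its minimum for groups of 4, and an adjusted p of 0.366 over 32 tests. The ratio of Fcgr1 differed by -0.47 ± 0.18 (exact permutation p = 0.0571) and that of Fcgr3 by -0.05. The inhibitory receptor over the activating one, Fcgr2b over Fcgr3, differed by 0.04 in PS19 against WT and by -0.14 in PS19_p16KO against PS19. No ratio passed after adjustment, and 1 of 32 had an unadjusted exact permutation p under 0.05.

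**Figure D3:**
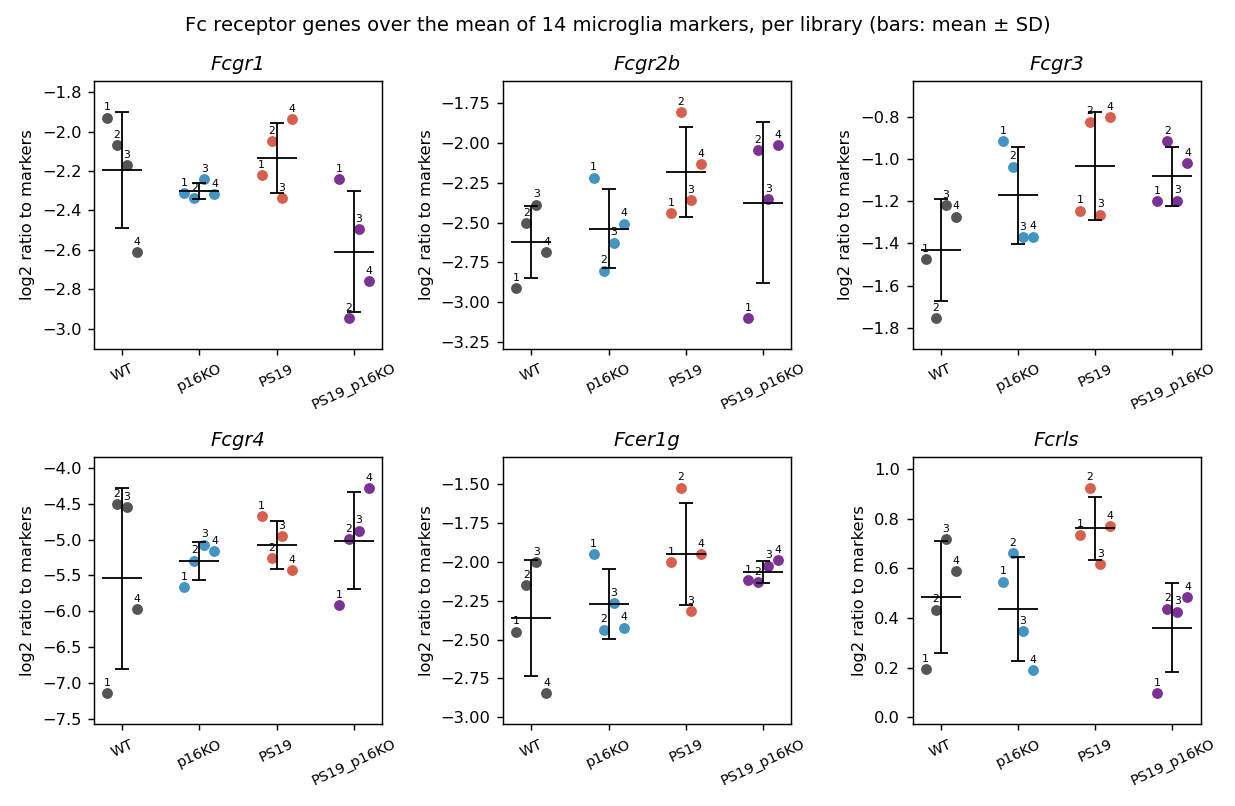
Each gene relative to the mean of 14 microglia markers (y axis, log2 ratio within a library) by genotype (x axis), where points are libraries marked with their replicate number and bars give the mean ± SD of 4 libraries. The Fcrls ratios of PS19 and PS19_p16KO do not overlap, and those of the other genes do.

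Genes downstream of the activating receptors rose in part in PS19. Of 22 genes of that pathway, 8 rose and none fell (median log2 fold change 0.66). Of all tested genes 1.56% were called higher (median -0.01), and of the 14 microglia markers 10 were (median 0.93). A rise was thus not particular to this pathway. Among the 8 genes were Fgr, a Src family kinase (2.39 ± 0.42, adjusted p = 0.00403), and Lat2, an adaptor (2.01 ± 0.30, adjusted p = 0.00116). Both were low, at 0.380 ± 0.0684 and 0.670 ± 0.134 CPM in WT (SD, n = 4). Others were Nckap1l, a subunit of the actin-regulating WAVE complex (0.91 ± 0.18, adjusted p = 0.0119), and Lyn, a Src family kinase (0.66 ± 0.13, adjusted p = 0.00762). Syk, the kinase that the ITAM recruits, had 0.59 ± 0.15 and did not pass (adjusted p = 0.0505). In PS19_p16KO against PS19, 7 of the 22 fell (median -0.59): Fgr (-1.91), the kinase Btk (-1.59), Lat2 (-1.29), the GTPase Rac2 (-1.18), the adaptor Lcp2 (-0.87), Nckap1l (-0.86) and Lyn (-0.59), at adjusted p = 0.0188 to 0.0389. Of all tested genes 0.776% were called lower there, and of the 14 microglia markers 6 were (median -0.70).

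On the inhibitory side 2 of 8 tested effectors rose in PS19 (median 0.26), and both encode phosphatases that ITIM receptors recruit. Of all tested genes 1.56% were called higher there. Ptpn6, which encodes SHP-1, went from 2.91 ± 0.464 CPM in WT to 8.43 ± 2.35 in PS19 (SD, n = 4; log2 fold change 1.53 ± 0.19, adjusted p = 0.000280) and stood at 4.13 ± 0.773 in PS19_p16KO (-1.02 ± 0.19 against PS19, adjusted p = 0.0134). Inpp5d, which encodes SHIP1, rose by 0.78 ± 0.14 (adjusted p = 0.00352) and fell by 0.69 ± 0.14 in PS19_p16KO (adjusted p = 0.0175). In that second comparison these same 2 of 8 fell (median -0.21), where 0.776% of all tested genes were called lower.

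Other inhibitory receptors of myeloid cells rose in 3 of 9 tested cases (median 0.71), namely the sialic acid receptors Cd22 (3.69 ± 0.48, adjusted p = 0.000355) and Cd33 (0.65 ± 0.14, adjusted p = 0.0150) and the collagen receptor Lair1 (0.94 ± 0.15, adjusted p = 0.00221). Cd22 was low, at 0.213 ± 0.0977 CPM in WT and 2.84 ± 1.55 in PS19 (SD, n = 4). In PS19_p16KO against PS19, 3 of 9 fell (median -0.84): Cd22 (-2.95 ± 0.45), Pirb (-1.92 ± 0.42) and Lair1 (-0.84 ± 0.15). Pirb was low too, at 1.14 ± 0.550 CPM in PS19 and 0.293 ± 0.133 in PS19_p16KO (SD, n = 4). Of the other ITAM receptors and adaptors, 3 of 11 measured were tested, and 2 of them, the adaptor Tyrobp (1.65 ± 0.23, adjusted p = 0.00117) and the receptor Cd300c2 (1.42 ± 0.25, adjusted p = 0.00338), rose in PS19. Both fell in PS19_p16KO, with log2 fold changes of -1.43 ± 0.23 and -1.25 ± 0.25 against PS19 (adjusted p = 0.00748 and 0.0175). Over all tested genes, 1.56% were called higher in PS19 against WT and 0.776% lower in PS19_p16KO against PS19.

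Few further genes of antibody receptors, their subunits and Fc receptor-like proteins were high enough to be tested. Of 13 such genes 4 were tested and none was called in any comparison. Over all tested genes, 1.56% were called higher in PS19 against WT and 0.776% lower in PS19_p16KO against PS19. A lack of calls among so few genes is near that background. Fcgrt, the neonatal Fc receptor that recycles IgG, stood at 12.2 ± 2.90 CPM in WT, 13.4 ± 2.17 in p16KO, 13.02 ± 1.38 in PS19 and 13.1 ± 1.90 in PS19_p16KO. Of 15 genes for ligands of Fc receptors, which are antibody chains, the joining chain and pentraxins, 3 antibody chain genes were tested and none was called. With so few tested, that is near the background too. No gene of these 6 lists passed in p16KO against WT, PS19_p16KO against p16KO, PS19_p16KO against WT or the interaction. Over all tested genes, 0%, 0.0183%, 0.0366% and 0.00611% were called there, in that order.

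**Figure D4:**
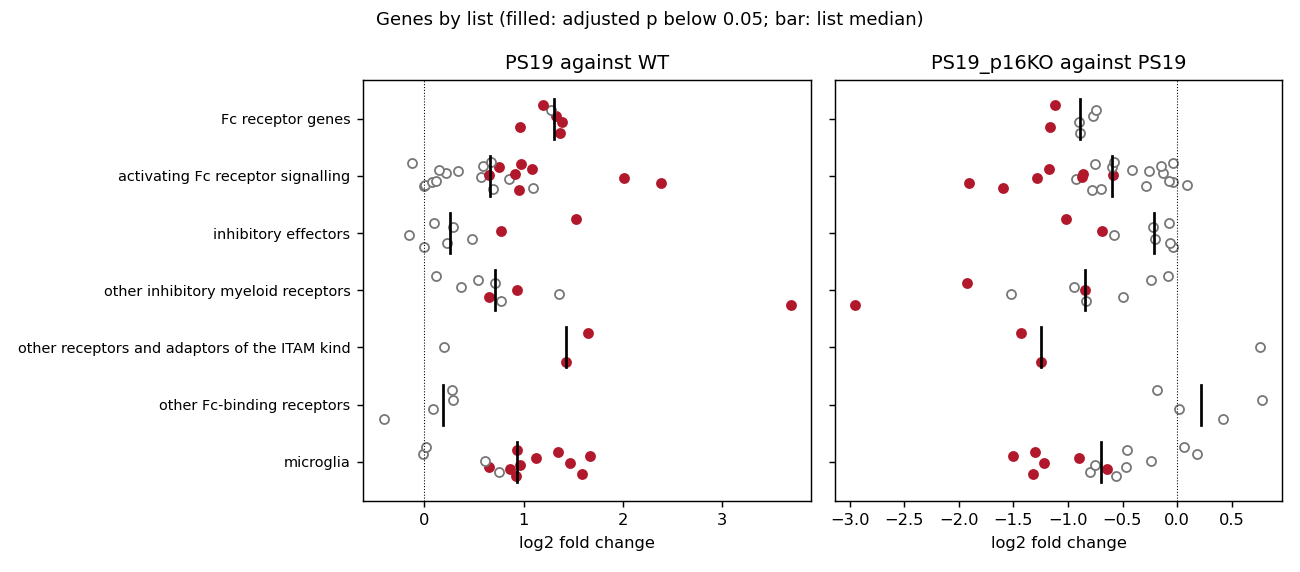
Log2 fold change (x axis) of each tested gene, by list (y axis), in PS19 against WT (left) and PS19_p16KO against PS19 (right), with filled points where the adjusted p is below 0.05 and a bar at the list median. The 6 Fc receptor genes lie between 0.97 and 1.39 on the left and between -1.16 and -0.74 on the right. In the row of other Fc-binding receptors, which includes Fc receptor-like genes, the 4 tested genes hold no filled point. Of all tested genes, 1.56% were called higher on the left and 0.776% lower on the right.

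Genes beside the Fc receptor loci were described for comparison. Within 100 kb of the 4 genes on chromosome 1, 17 other genes were tested and 0 were called in either comparison with PS19, with log2 fold changes from -0.06 to 1.44, the upper end above that of any Fc receptor gene, and a median of 0.05 in PS19 against WT. Around Fcgr1 and Fcrls on chromosome 3, 11 were tested and 0 were called, from -0.27 to 0.37. With 1.56% of all genes called higher in PS19 and 0.776% lower in PS19_p16KO, counts of 0 among so few genes are near the background. The annotated RNAs that overlap Fcgr2b, Fcgr3 and Fcgr4 had 0 counts.

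The genes most like each member were found by the root-mean-square difference of centred log2 CPM over the 16 libraries, among 13330 genes, with the 6 members left out of the candidates. Predicted or unnamed gene models and genes with a mean of 1 CPM or less were left out too. Closest to Fcrls were Plek, a phagocyte signalling protein (0.134), Rac2 (0.182) and Slc14a1, a urea transporter (0.183), where the median gene stood at 0.550. Closest to Fcgr1 were Ctsh, a lysosomal protease (0.180), Arhgap30 (0.203) and Gpnmb (0.227). Near to Fcgr3 were S100a6 (0.201) and the microglia marker Laptm5 (0.220). Closest to Fcer1g were Tnfaip8l2 (0.182), the receptor Havcr2 (0.187) and the class I gene H2-D1 (0.210), and closest to Fcgr2b were Cd300c2 (0.268), Havcr2 (0.270) and the protease Ctsz (0.270). Fcgr4 had no candidate nearer than Psmb9 (0.550), where its median gene stood at 0.834, at a depth of 133 counts over all libraries. Its own mean of 0.428 CPM lay below the level asked of candidates, so genes as low as Fcgr4 were not searched. Among the members themselves, Fcgr3 and Fcrls were the closest pair (0.231) and Fcgr1 and Fcgr4 the farthest (0.809).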

How the data were processed

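The authors deposited raw counts per gene for 16 hippocampal libraries in 1 table. The submitters' processing notes name the build GRCm38 and the tools STAR 2.5.2b, Trimmomatic 0.36, Subread 1.5.2, featureCounts and DESeq2. Their roles and order, the strand setting and the annotation release were not given in the sources used here. Symbols, coordinates and lengths came from GENCODE M21, which matched 49326 of 49671 gene rows. The 92 ERCC spike-in rows (0.574% to 1.06% of counts) were left out.

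Counts were tested with edgeR 4.0.16 in R 4.3.3 (filterByExpr minimum count 10, TMM, robust quasi-likelihood F test, 16 libraries in 1 fit with a mean per genotype). Benjamini-Hochberg adjusted p-values cover all 16372 genes tested, with a threshold of 0.05, and errors of fold changes are SE. Ratios within libraries used log2 CPM with a prior count of 2 and exact two-sided permutation tests over 70 assignments. Counts of replicates differed beyond sampling noise (chi-square per degree of freedom 4.82 to 26.3). Alternatives were RLE scaling, no filter, a CPM filter, a replicate block, a library-name term, DESeq2 1.42.0, limma-voom 3.58.1, only the genotypes compared, and libraries left out.

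The 6 genes, the gene lists and the motif were chosen with earlier results of these data known. Genes named from a list are the 4 with the smallest adjusted p in PS19 against WT and any called elsewhere. Syk, Spi1, P2ry12, Tmem119, Fcgrt, Fn1, Xbp1 and the levels of Cd22, Ptpn6, Fgr, Lat2 and Pirb were picked for description. One gene that the rule on likeness names is not reported here.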

Additional observations from a re-analysis of the deposited data

Results flagged for a closer look

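Fcgr2b stood at 1.94 CPM in PS19_p16KO library 1, the lowest of its group, while the other 3 libraries lay between 3.27 and 3.52 CPM. Its gap to the nearest library was 0.844 of the range of the group, above Dixon's 95% critical value for 4 samples. Chance marks about 1 in 20 groups, and 24 groups were examined. Among the PS19_p16KO libraries it also held the lowest values of Fcgr4 and Fcrls and the highest of Fcgr1. The cause was not tested.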

How the results depend on the processing

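With the replicate number as a block the count of genes called in the interaction went from 1 to 5, and no call among the 6 Fc receptor genes changed. The labels do not say that the numbers pair libraries. Deviations of same-numbered libraries correlated above 0.1 in 6 of 24 pairs, from -0.39 to 0.22. These values cannot decide whether the libraries were paired, since libraries rich in choroid plexus RNA also enter them. Fc receptor genes called in PS19 against WT went from 5 to 2 with only the genotypes compared, and genes called from 264 to 70. In PS19_p16KO against PS19 the 2 called became 4 without a filter, 1 with the library-name term, 5 with DESeq2, and 0 with limma-voom, with only the genotypes compared or without the 3 choroid-rich libraries. Genes called there, 135, became 87 with the library-name term, 278 with DESeq2, 37 with limma-voom, 8 with only the genotypes compared and 62 without the choroid-rich libraries. In the interaction, Fc receptor genes went from 0 to 1 without a filter and 2 with DESeq2, and genes from 1 to 6 with RLE scaling, 20 without a filter, 13 with the library-name term and 88 with DESeq2. Genes called in PS19_p16KO against WT, 6, became 15, 32 and 27 without a filter, with DESeq2 and without the choroid-rich libraries, and in PS19_p16KO against p16KO 3 became 7 with DESeq2 and 5 with limma-voom. In p16KO against WT 0 became 4 without a filter, 18 with DESeq2, 9 with limma-voom, 9 with only the genotypes compared and 7 without the choroid-rich libraries. Leaving out 1 library at a time gave 4 to 5 Fc receptor genes and 124 (PS19 library 1) to 438 (PS19 library 3) genes in PS19 against WT, 0 to 5 and 29 (PS19 library 2) to 347 (PS19 library 3) in PS19_p16KO against PS19, 0 to 5 and 1 to 160 (PS19 library 3) in the interaction, 4 to 13 genes in PS19_p16KO against WT, 2 to 5 in PS19_p16KO against p16KO and 0 to 8 in p16KO against WT. The cause of these changes was not tested; settings with fewer libraries have fewer degrees of freedom.

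Signs turned only for differences that had not passed. With 1 library left out, the log2 fold change ran from -0.11 to 0.15 for Fcgr1 and -0.34 to 0.61 for Fcgr4 in p16KO against WT, and from -0.17 to 0.025 for Fcrls in PS19_p16KO against p16KO. Without the choroid-rich libraries it was -0.36 for Fcgr4 in p16KO against WT and -0.043 for Fcrls in PS19_p16KO against WT. Ratios to microglia markers ran from -0.080 to 0.15 for Fcgr1 and -0.071 to 0.81 for Fcgr4 in PS19 against WT, and in PS19_p16KO against PS19 from -0.24 to 0.024 for Fcer1g, -0.31 to 0.048 for Fcgr2b, -0.13 to 0.028 for Fcgr3 and -0.18 to 0.36 for Fcgr4 (-0.028 with a prior count of 0.5). Fcgr2b over Fcgr3 ran from -0.041 to 0.19 and -0.24 to 0.060 in these comparisons, and Fcrls over Fcer1g from -0.22 to 0.062 in PS19 against WT. Depth limits Fcgr4, with 0 to 24 counts per library.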

Other observations

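Transcripts of Ighg2c, Igkc and Jchain were concentrated in 1 WT library. Ighg2c, an IgG heavy chain gene, stood at 33.0 CPM in WT library 3 and at 0.262, 0.493 and 0.159 CPM in WT libraries 1, 2 and 4. Igkc, the kappa light chain gene, stood at 15.7 CPM there and at 0.995, 0.852 and 0.212 CPM in the others, and Jchain, which joins antibody units, at 4.13 CPM there. Ighm, the IgM heavy chain gene, did not follow, at 8.73 CPM in that library and 8.85, 9.77 and 4.72 CPM in the other WT libraries. Ighg3, another IgG heavy chain gene, peaked in WT library 2, at 1.17 CPM. The Fc receptor genes in that library were at 2.91 CPM for Fcgr1, 2.49 CPM for Fcgr2b, 5.71 CPM for Fcgr3, 0.476 CPM for Fcgr4, 3.28 CPM for Fcer1g and 22.2 CPM for Fcrls. The library was the highest of WT for 4 of these 6 genes, all but Fcgr1 and Fcgr4. For Fcgr2b and Fcer1g it lay close to WT library 2, at 2.47 and 3.18 CPM. The relation of the Fc receptor genes to the antibody transcripts was not tested. The antibody genes were picked after their values were seen.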
